A study of Mus musculus with 6 samples.

Results

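Claudins are the membrane proteins that build the strands of the tight junction, the belt near the apical pole that seals the space between epithelial cells. Each claudin crosses the membrane several times, and its extracellular loops pair with those of the neighbouring cell. Some claudins mainly close the paracellular route, while others form pores for ions or water, so the mix of claudins sets how leaky an epithelium is. In bile ducts and between hepatocytes such junctions separate bile from the tissue fluid. The genes described here are the 10 claudins Cldn1, Cldn2, Cldn3, Cldn4, Cldn6, Cldn7, Cldn8, Cldn10, Cldn12 and Cldn14. They were chosen by symbol, with earlier results of these data known, and all 10 were found among the 52550 genes listed. A further 23 numbered claudin genes in the same table are given beside them.

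The cells were GFP-positive cells sorted from embryonic livers of CD-1 mice with the genotype Sox9-GFP, a reporter that labels cells expressing the transcription factor SOX9 with green fluorescent protein. Both stages carried the reporter, and neither was treated. Each stage, E16.5 and E18.5, had 3 libraries (embryonic days 16 and 18 in the sample labels), here called replicates A, B and C, and each library came from a pool of 15 livers. The unit of measurement was TPM, a relative transcript abundance which divides the reads of a gene by its length and by the library total. The reporter follows SOX9 and not the biliary fate itself, so the sort can hold cells that have not completed differentiation.

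The sorted cells carried cholangiocyte and hepatoblast transcripts together. Of 10 cholangiocyte marker genes, 9 had at least 1 TPM in every library. The 10 summed to 1018 to 3048 TPM at E16.5, compared with 8936 to 15128 TPM at E18.5. Spp1 was the largest part of this sum, with 469 to 1767 TPM at E16.5 and 6629 to 12121 TPM at E18.5. The 10 hepatoblast genes summed to between 176126 and 223727 TPM at E16.5, and at E18.5 their sum was 41048 to 100941 TPM. Alb alone had 117854 to 148077 TPM at E16.5 and 30024 to 70152 TPM at E18.5. Replicate C of E16.5 held the lowest cholangiocyte sum and the highest hepatoblast sum of the 6 libraries, and replicate B of E18.5 the reverse. Summed levels of the other lists at E16.5 and E18.5 were 113 to 183 and 103 to 202 TPM (8 endothelial genes), 195 to 228 and 90.7 to 409.8 TPM (8 erythroid genes), 2763 to 8107 and 71.3 to 658 TPM (6 megakaryocyte genes), 66.7 to 111 and 78.2 to 155 TPM (6 leukocyte genes), and 1.65 to 8.09 and 29.5 to 67.8 TPM (5 mesothelial genes). They were 4.01 to 40.5 and 11 to 53.0 TPM for 6 pancreatic endocrine genes, and 13.5 to 63.8 and 34.1 to 38.5 TPM for 6 gastric and intestinal genes. Recovered reads ranged from 23193537 to 26206374 per library at E16.5 and from 13093937 to 22643868 at E18.5. For the members outside Cldn10 the value in a single library rested on 4 to 6975 reads.

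At E16.5 the most abundant member was Cldn1, and at E18.5 it was Cldn6. Cldn1 encodes a barrier-forming claudin of many epithelia, and its loss in people causes a neonatal form of sclerosing cholangitis. Cldn6 is known from embryonic epithelia and is largely silent in adult tissues. The mean level of Cldn1 at E16.5 was 234 ± 30.4 TPM (SD, n = 3), above 98.6% of the 21819 protein-coding genes in the table, and that of Cldn6 was 145 ± 58.6 TPM. Every E16.5 library of Cldn1 lay above every E16.5 library of Cldn6. Next at E16.5 came Cldn12 (59.0 ± 11.1 TPM), Cldn7 (52.1 ± 21.5), Cldn3 (45.9 ± 23.7), Cldn4 (29.6 ± 15.0) and Cldn2 (24.9 ± 11.8). The range of each of these 5 overlapped that of the next in the order, although every Cldn12 library lay above every library of Cldn4 and Cldn2. Within a library, Cldn7 was above Cldn3, Cldn3 above Cldn4 and Cldn4 above Cldn2 in 3 of 3, and Cldn12 above Cldn7 in 2. Cldn2 in turn overlapped Cldn14 (13.2 ± 2.26 TPM), which lay above Cldn8 (5.00 ± 3.40 TPM) in all 3 libraries without overlap. Cldn10 was last, with 1.28 ± 1.97 TPM.

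The order was different at E18.5. Cldn6 led with 237 ± 27.6 TPM (SD, n = 3), above all libraries of the next gene, and higher than 98.6% of protein-coding genes. Then came a group in which each gene overlapped its neighbour, made of Cldn3 (125 ± 10.7 TPM), Cldn7 (123 ± 19.5), Cldn12 (100.1 ± 14.3), Cldn1 (98.6 ± 39.1), Cldn4 (84.5 ± 25.1) and Cldn2 (53.9 ± 4.2). Cldn8 (10.9 ± 1.02 TPM) lay below every library of Cldn2 and above every library of Cldn14 (2.89 ± 2.78 TPM). Cldn10 was again last, with 0.308 ± 0.396 TPM. Thus Cldn1 stood at the head of the list at E16.5 and in its middle at E18.5. The plot of levels by library shows that 9 of the 10 members had stages that did not overlap, 7 higher and 2 lower at E18.5. Such separation was common in these data. Of the 22452 genes compared between the stages below, 45.0% were higher and 8.30% lower at E18.5 without overlap.

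**Figure D1:**
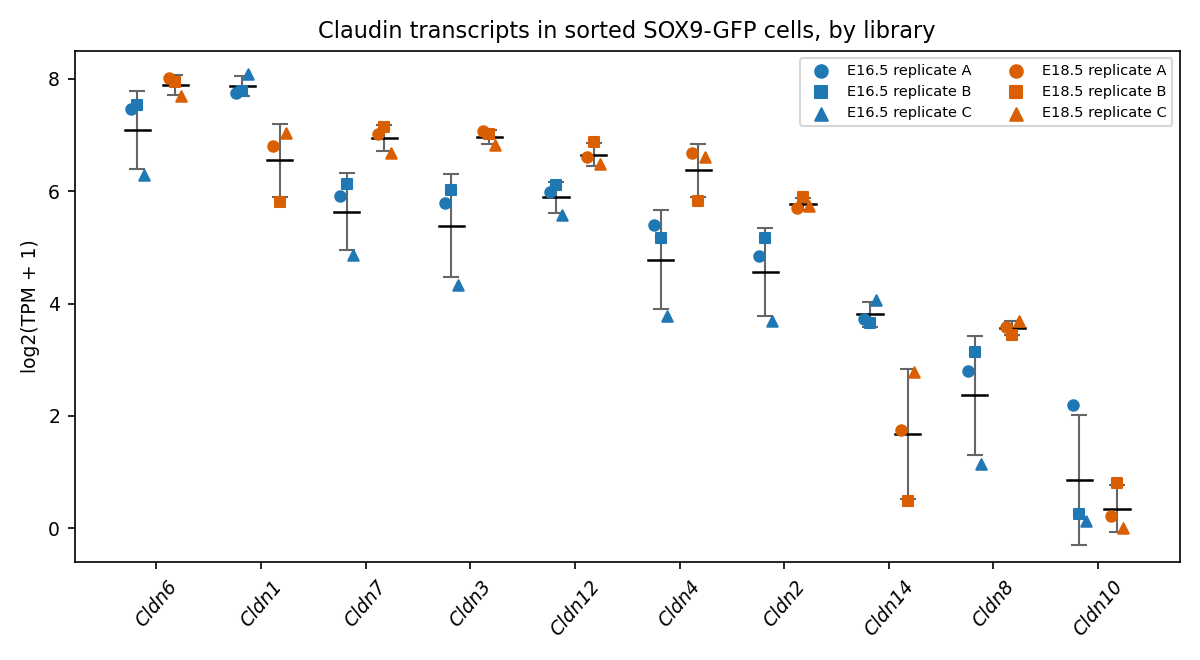
Level of the 10 claudins in each library as log2(TPM + 1), ordered by their mean over the 6 libraries; points are single libraries (circle A, square B, triangle C; blue E16.5, orange E18.5), the horizontal line is the mean and the bar the SD of 3 libraries. Cldn1 and Cldn14 are lower at E18.5, 7 members are higher, and the stages overlap for Cldn10. Of all 22452 genes tested, 45.0% are higher and 8.30% lower at E18.5 without overlap.

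The stages were compared with limma on log2(TPM + 1) over the 22452 genes whose mean reached 1 TPM, and a gene was called at an adjusted p under 0.05 (Benjamini-Hochberg over all genes tested). Of the 10 members, 9 passed the filter and Cldn10, with a mean of 0.796 TPM, did not. Of these 9, 5 rose (Cldn2, Cldn3, Cldn4, Cldn7 and Cldn12), 2 fell (Cldn1 and Cldn14) and 2 did not pass the threshold (Cldn6 and Cldn8). Among all genes tested, 26.0% were called higher and 5.22% lower at E18.5. Without overlap between the stages, 7 of the 9 were higher and 2 lower, against 45.0% and 8.30% of all genes tested. A two-sided exact permutation test on the TPM of a single member gave p = 0.1 for each of the 9, the smallest that 3 libraries against 3 allow, and all p-values measure the spread between these pooled libraries. The median log2 fold change was 1.21 over the 9 members and 0.42 over all genes tested, so the median gene also moved upward. Relative to that median the log2 changes were between 0.35 (Cldn12) and 1.17 (Cldn3 and Cldn4) for the 7 higher members, -1.74 for Cldn1 and -2.55 for Cldn14. The cells are a mixture, and fewer cells of a type and less RNA per cell cannot be told apart in such libraries.

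The rises depended on the scaling between libraries, whereas both falls were called under each scaling. With median-of-ratios scaling (the size of each library set by the median gene) the median change of all genes was 0.02, and 6.81% of the genes tested were called higher and 10.4% lower. The higher calls then made up 39.6% of all calls, where the deposited TPM gave 83.3%. None of the 7 higher members was called by limma after this scaling (5 of them had an unadjusted p under 0.05), nor with quantile normalization (again 5), while limma voom on the recovered reads called 5. Over all genes, 3796 of 22452 were called in either direction with quantile normalization and 5565 of 20430 with limma voom. All 9 kept their direction under each scaling. The median-of-ratios log2 fold change was 1.14 for Cldn3, 1.15 for Cldn4, 0.86 for Cldn7, 0.84 for Cldn8, 0.77 for Cldn2, 0.34 for Cldn6 and 0.31 for Cldn12, with adjusted p (limma) from 0.0767 to 0.418.

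**Figure D2:**
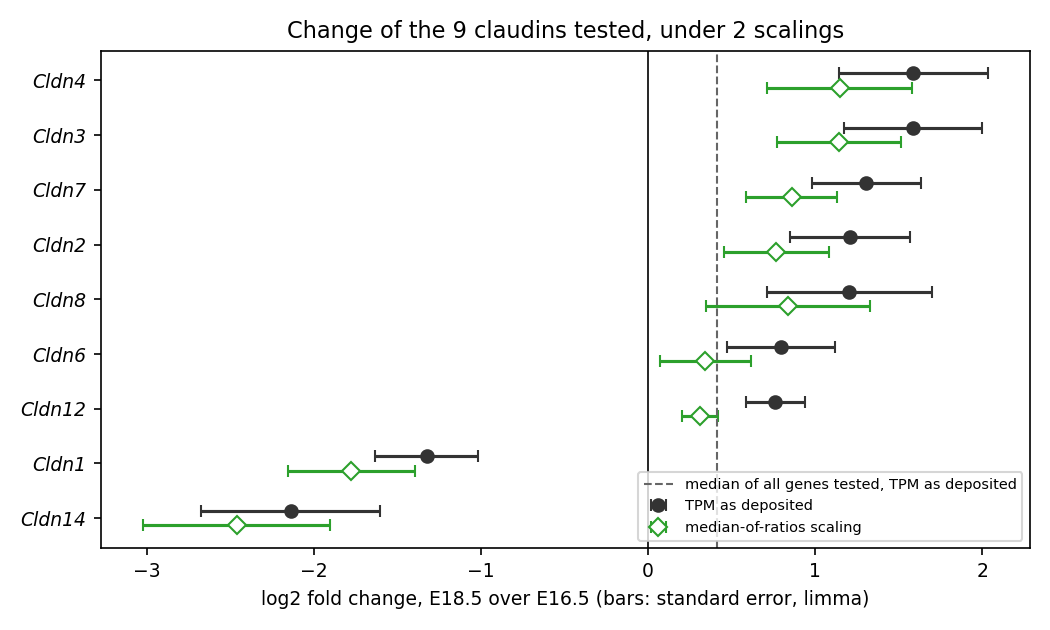
Log2 fold change of E18.5 over E16.5 for the 9 claudins tested, with TPM as deposited (filled circles) and after median-of-ratios scaling (open diamonds); bars are the standard error from limma, and the dashed line is the median of all genes tested at 0.42. Cldn1 and Cldn14 lie left of 0 under both scalings, and the 7 other members lie right of 0 and move toward it after scaling.

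Cldn3 and Cldn4 had the 2 largest rises. Both encode claudins that tighten the barrier of simple epithelia, and both are known as the receptors of an enterotoxin of Clostridium perfringens. In the order A, B, C, Cldn3 had 54.3, 64.2 and 19.1 TPM at E16.5 and 133, 128 and 113 TPM at E18.5. The lowest E18.5 library was above the highest E16.5 library. Its mean was 2.72-fold higher at E18.5, and the log2 fold change was 1.59 (standard error 0.41, limma adjusted p = 0.0293). Cldn4 had 41.1, 35.0 and 12.7 TPM at E16.5, and 101, 55.7 and 96.8 TPM at E18.5. Its stages did not overlap either, but replicate B of E18.5 was well below the other E18.5 libraries. The mean was 2.86-fold higher at E18.5, and the change on the log2 scale was 1.59 (standard error 0.44, limma adjusted p = 0.0353).

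These genes are neighbours on chromosome 5 (GRCm38). Each has a single exon in the GENCODE vM21 annotation, and 39279 bp lie between them. Cldn3 (ENSMUSG00000070473.4) spans 134986214 to 134987472 on the forward strand, and an antisense transcript, Wbscr25, overlaps 3.18% of its exon. Cldn4 (ENSMUSG00000047501.3) spans 134945119 to 134946934 on the reverse strand. On its other side, at a distance of 29592 bp, lies Cldn13, which had 1.17 to 4.04 TPM at E16.5 and 2.33 to 4.03 TPM at E18.5, with overlapping stages (log2 fold change 0.20, limma adjusted p = 0.710). Cldn3 was above Cldn4 in all 6 libraries, by a ratio of TPM between 1.16 (replicate C of E18.5) and 2.30 (replicate B of E18.5).

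The promoter windows of this pair are printed because the genes lie side by side and rose together. The windows run from 250 bases before to 50 bases after the transcription start in RefSeq (GRCm38.p6) and were searched on both strands for AACNGGTT (Grainyhead factors), ACAAAG and ACAATG (SOX factors) and TATAAA (the TATA box). Capitals mark the letters of a match, and no match overlapped another. Of 32851 windows of all genes, 2.09% hold AACNGGTT, 18.7% ACAAAG, 12.6% ACAATG and 13.6% TATAAA. The Cldn3 window holds none of the 4 motifs, and the Cldn4 window holds ACAAAG on the opposite strand, its leftmost base 123 bases before the start.
Cldn3 (chr5:134985964-134986263, forward strand): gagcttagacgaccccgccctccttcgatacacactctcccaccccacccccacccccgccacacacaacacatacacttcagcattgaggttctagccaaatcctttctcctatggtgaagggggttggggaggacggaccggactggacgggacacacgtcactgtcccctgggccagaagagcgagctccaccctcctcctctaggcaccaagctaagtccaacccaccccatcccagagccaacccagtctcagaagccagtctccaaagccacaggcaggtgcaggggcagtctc
Cldn4 (chr5:134946885-134947184, reverse strand): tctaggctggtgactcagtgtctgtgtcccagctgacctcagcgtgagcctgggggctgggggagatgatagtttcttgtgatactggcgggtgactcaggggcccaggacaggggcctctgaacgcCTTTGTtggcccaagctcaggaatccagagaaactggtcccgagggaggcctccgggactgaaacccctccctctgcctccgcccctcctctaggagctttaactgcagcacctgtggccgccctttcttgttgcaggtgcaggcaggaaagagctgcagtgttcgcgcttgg

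Cldn7 and Cldn2 rose as well. Cldn7 encodes a claudin found along the lateral membrane of many epithelia, and Cldn2 encodes a pore for cations and water that makes junctions leaky. Cldn7 had 59.3, 69.1 and 27.9 TPM at E16.5 and 128, 139.6 and 102 TPM at E18.5. Its log2 fold change was 1.31 (standard error 0.33, limma adjusted p = 0.0265), with means 2.36-fold apart. Cldn2 had 27.9, 34.9 and 11.8 TPM at E16.5 and 50.7, 58.7 and 52.3 TPM at E18.5. For both genes replicate C of E16.5 was the lowest library and the stages did not overlap. The log2 fold change of Cldn2 was 1.21 (standard error 0.36, limma adjusted p = 0.0415), and its means were 2.17-fold apart.

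Cldn7 (ENSMUSG00000018569.12) occupies positions 69964779 to 69967885 of chromosome 11, forward strand. Cldn2 (ENSMUSG00000047230.6) occupies positions 139800828 to 139811386 of chromosome X, also forward strand. The window of Cldn2 is printed because, of 15 windows for 9 members, it was the only one with TATAAA, which begins 35 bases before the RefSeq start. ACAAAG was found in 3 of the 15 windows (Cldn1, Cldn4 and Cldn10), ACAATG in 1 (Cldn14) and AACNGGTT in 0.
Cldn2 (chrX:139800558-139800857, forward strand): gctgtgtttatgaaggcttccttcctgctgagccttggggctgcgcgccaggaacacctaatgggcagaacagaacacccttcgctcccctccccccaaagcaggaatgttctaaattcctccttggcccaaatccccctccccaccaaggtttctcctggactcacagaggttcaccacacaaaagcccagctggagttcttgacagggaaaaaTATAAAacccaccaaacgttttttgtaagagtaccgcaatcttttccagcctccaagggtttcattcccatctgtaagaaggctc

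Cldn12 rose by less than the 4 other members called higher, and with the smallest standard error of the 9 tested. It encodes a claudin without the PDZ-binding tail of its relatives and is known for paracellular calcium passage. Its values were 62.5, 67.8 and 46.5 TPM at E16.5 and 96.2, 116 and 88.1 TPM at E18.5. The stages did not overlap, and the means were 1.70-fold apart. The log2 fold change was 0.76 (standard error 0.18, limma adjusted p = 0.0220), of which 0.35 lay above the median shift of all genes. Cldn12 (ENSMUSG00000046798.14) lies on the reverse strand of chromosome 5 from 5489537 to 5514958, at the other end of the chromosome from Cldn3 and Cldn4.

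For Cldn6 and Cldn8 the rise did not pass the threshold. Cldn6 had 174, 183 and 77.5 TPM at E16.5 and 259, 246 and 206 TPM at E18.5, a log2 change of 0.80 (standard error 0.32, 95% interval 0.036 to 1.56, limma adjusted p = 0.0957). Cldn8, known from the distal nephron, had 5.94, 7.84 and 1.22 TPM at E16.5 and 10.9, 9.88 and 11.9 TPM at E18.5. Its log2 fold change was 1.21 (standard error 0.49, 95% interval 0.046 to 2.37, limma adjusted p = 0.0975). In both genes all E18.5 libraries were above all E16.5 libraries, and the E16.5 libraries were spread 2.36-fold and 6.40-fold. The lowest of them, replicate C of Cldn8, rested on 23 reads, with a 95% exact (Clopper-Pearson) interval of 0.776 to 1.84 TPM that covers counting error only.

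Cldn6 (ENSMUSG00000023906.2) occupies positions 23679249 to 23682446 of chromosome 17, forward strand, and the gene is 137 bp from Cldn9, which is read from the opposite strand. The neighbour was much lower, with 2.84, 3.57 and 0 TPM at E16.5 and 4.79, 6.0 and 6.86 TPM at E18.5 (log2 fold change 1.39, limma adjusted p = 0.0974). Where Cldn9 had reads, Cldn6 was between 30.0-fold and 61.3-fold above it. For the 0 of replicate C of E16.5 the 95% exact interval reached 0.322 TPM, and 3 reads would be 0.262 TPM. Cldn8 (ENSMUSG00000050520.4) lies on the reverse strand of chromosome 16 from 88560828 to 88563183, 53849 bp from Cldn17, for which the highest value in any library was 0.219 TPM.

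Cldn1 and Cldn14 fell. Cldn1 had 214, 220.2 and 269 TPM at E16.5 and 111, 54.8 and 130.3 TPM at E18.5. The E18.5 libraries all lay below the E16.5 libraries, with replicate B the lowest. The mean was 2.38-fold higher at E16.5, and the log2 fold change was -1.32 (standard error 0.31, limma adjusted p = 0.0225). After median-of-ratios scaling it was -1.78 (standard error 0.38, limma adjusted p = 0.0293). Cldn1 (ENSMUSG00000022512.2) lies on the reverse strand of chromosome 16 from 26356642 to 26371841, 91293 bp from Cldn16, whose highest library had 0.497 TPM. The deposited TPM of Cldn1 rest on an exon length of 3247 bp, worked out from the values, whereas vM21 gives 4841 bp, so its place in the order of levels depends on the annotation and its fold change does not. Its window is shown as that of the member that led at E16.5 and fell, with ACAAAG on the opposite strand in capitals.
Cldn1 (chr16:26371790-26372089, reverse strand): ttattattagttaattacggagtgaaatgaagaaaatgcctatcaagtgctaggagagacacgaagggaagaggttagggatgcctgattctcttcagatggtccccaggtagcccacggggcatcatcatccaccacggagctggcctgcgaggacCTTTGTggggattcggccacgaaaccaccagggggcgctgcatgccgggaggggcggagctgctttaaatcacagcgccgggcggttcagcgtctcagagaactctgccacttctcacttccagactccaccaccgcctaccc

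Cldn14, which encodes a claudin of the inner ear, kidney and liver whose loss causes deafness, had the largest change of the 9 members. It had 12.2, 11.5 and 15.7 TPM at E16.5 and 2.38, 0.398 and 5.88 TPM at E18.5. The stages did not overlap, and the E18.5 libraries were spread 14.8-fold, the lowest resting on 4 reads. The mean was 4.56-fold higher at E16.5. The log2 fold change was -2.14 (standard error 0.54, limma adjusted p = 0.0270), and -2.46 after median-of-ratios scaling (standard error 0.56, limma adjusted p = 0.0334). Cldn14 (ENSMUSG00000047109.12) lies on the reverse strand of chromosome 16 from 93919031 to 94008837. Hepatoblast transcripts moved in the same direction in these libraries, with 6 of the 10 list genes called lower, against 5.22% of all genes tested. Their median log2 fold change was -1.24, against 0.42 over all genes. Alb, the largest part of the hepatoblast sum, was not called (limma adjusted p = 0.146). The 6 megakaryocyte genes moved in the same direction, with all 6 called lower and a median log2 fold change of -4.32. The part of hepatoblast or megakaryocyte transcripts in the falls of Cldn1 and Cldn14 was not tested.

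The calls rested on few libraries. Without replicate A of E18.5 limma called 0 of the 9 members (5 higher and 2 lower at an unadjusted p under 0.05). Without replicate B of E18.5 it called the 2 falls and 0 rises (5 at an unadjusted p under 0.05). Without replicate C of E18.5 Cldn7 and Cldn12 were the only rises called. Calls over all genes fell too, from 7000 of 22452 tested to 1472 of 22410 without replicate A of E18.5. They were 2917 of 22200 without replicate B and 5686 of 22220 without replicate C of E18.5. With an E16.5 library left out they were 4082 to 4783. Leaving out replicate C of E16.5 kept the calls of the 5 rises, with smaller changes for Cldn2 (0.77), Cldn3 (1.06) and Cldn4 (1.09), but lost both falls, and Cldn14 also lost its call without replicate A or B of E16.5. Cldn2 was not called without replicate A of E16.5, nor Cldn4 without replicate B of E16.5. The log2 changes of Cldn6 and Cldn8, not called in either case, were 0.40 and 0.60 without replicate C of E16.5. Without replicate C of E16.5 the log2 fold change was -1.22 for Cldn1 (limma adjusted p = 0.0644) and -2.01 for Cldn14 (limma adjusted p = 0.0779).

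The libraries of a stage differed among themselves partly along the same line as the stages, more clearly at E16.5 than at E18.5. Within E16.5, replicate C was the lowest library for all 7 higher members. It lay 2.12-fold to 4.85-fold below the lower of replicates A and B for Cldn2, Cldn3, Cldn4, Cldn6, Cldn7 and Cldn8, and 1.34-fold below for Cldn12. It was at the same time the highest E16.5 library for Cldn1, 1.22-fold above the next, and for Cldn14, 1.29-fold above the next. The cholangiocyte and hepatoblast sums deviated alike in that library, by -2.26 and 0.94 on the log2 scale from their means over the 6 libraries. Spp1 weighs most in the first sum and Alb in the second. The 6 megakaryocyte genes also summed highest in replicate C of E16.5, at 8107 TPM. At E18.5 their sum was highest in replicate B, at 658 TPM, unlike the hepatoblast sum. Among the E18.5 libraries, replicate B was lowest for Cldn1 and Cldn14 and for the hepatoblast sum (-1.51), and highest for Cldn2, Cldn7, Cldn12 and the cholangiocyte sum (1.64). Cldn3 and Cldn6 did not follow, since both were highest in replicate A of E18.5. Nor did Cldn4 and Cldn8, which were lowest in replicate B among the libraries of E18.5. How far the make-up of the sorted cells sets these values was not tested.

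**Figure D3:**
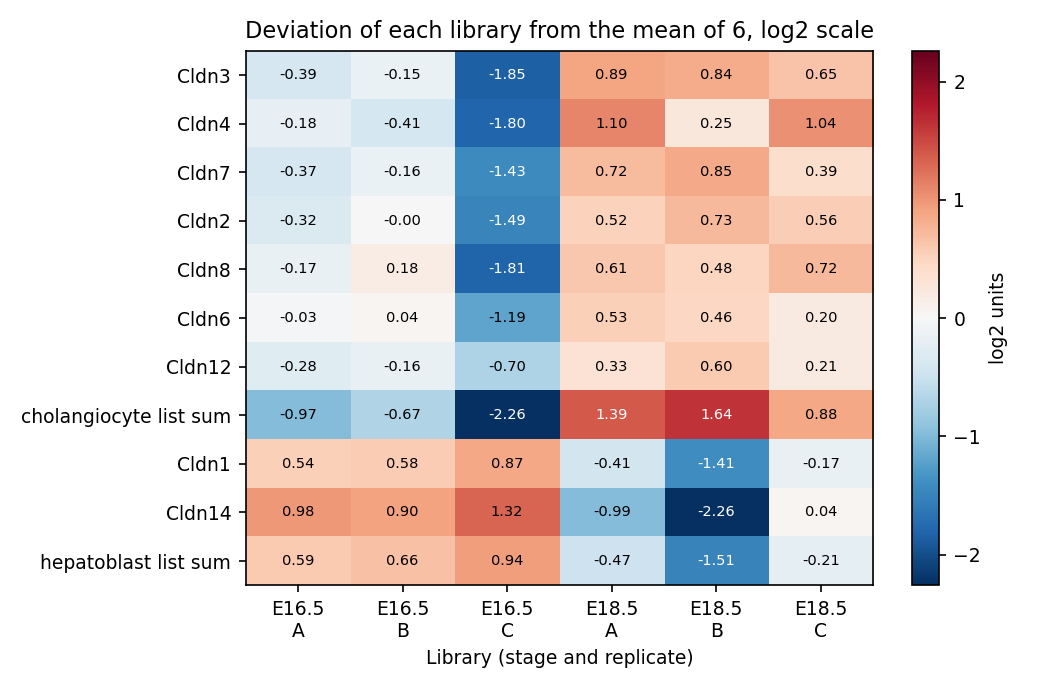
Deviation of each library from the mean of the 6, on the log2(TPM + 1) scale for 9 claudins and on the log2 scale for the summed TPM of the cholangiocyte and hepatoblast lists; columns are libraries, red is above and blue below the mean. Replicate C of E16.5 is the lowest column for the 7 upper claudins and the highest for Cldn1 and Cldn14, and Cldn4 is at 0.25 in replicate B of E18.5.

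As a description over the same 6 libraries, the genes most like single members were looked up among 11383 protein-coding genes whose mean reached 5 TPM, by Pearson's r of log2(TPM + 1). The 6 points share the stage difference and the low values of single libraries. For Cldn6, the member with the highest mean, they were 1700037C18Rik, Bahcc1 and Slc27a3 (r = 0.997, 0.996 and 0.996). For Cldn4, with the largest rise, they were Wfdc2, Epn3 and Dact2 (r = 0.994, 0.992 and 0.992). For Cldn14, with the largest fall, they were the transporter gene Slc47a1, the water channel gene Aqp8 and Haao (r = 0.999, 0.998 and 0.998). For Cldn1, added after its values were seen, they were C8a, Alb and Apoa2 (r = 0.9998, 0.9997 and 0.9988), which encode plasma proteins made by the liver. Values as high were found for Cldn12, also added later, with Bcl2, Hnrnpr and Rps3 (r = 0.9998, 0.9995 and 0.9993). Wfdc2 had 13.9, 11.5 and 4.18 TPM at E16.5 and 24.6, 16.8 and 25.5 TPM at E18.5, with the same low value in replicate B of E18.5 as Cldn4. Slc47a1 had 46.7, 39.9 and 57.0 TPM at E16.5 and 10.5, 3.41 and 22.9 TPM at E18.5.

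The make-up of the claudin transcripts shifted between the stages. The 10 members together had 655, 694 and 482 TPM at E16.5, whereas their E18.5 sums were 891, 810.2 and 805 TPM. They accounted for 92.4% to 97.2% of the TPM of all numbered claudins in each library. The members were chosen with earlier results of these data known, so this share can follow from the choice. Cldn1 made up 32.6%, 31.7% and 55.9% of the members' sum at E16.5 and 12.4%, 6.77% and 16.2% at E18.5. Cldn3 went from 3.97% to 9.24% at E16.5 to 14.0% to 15.8% at E18.5, and Cldn7 from 5.79% to 9.96% to 12.6% to 17.2%. The share of Cldn12 stayed within 9.55% to 9.77% at E16.5 and was 10.8% to 14.3% at E18.5. Such shares do not depend on the scaling between libraries. The ratio of Cldn1 to Cldn3, which is likewise free of it, was 3.94, 3.43 and 14.1 at E16.5 and 0.831, 0.428 and 1.16 at E18.5. These 2 sets of ratios did not overlap.

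**Figure D4:**
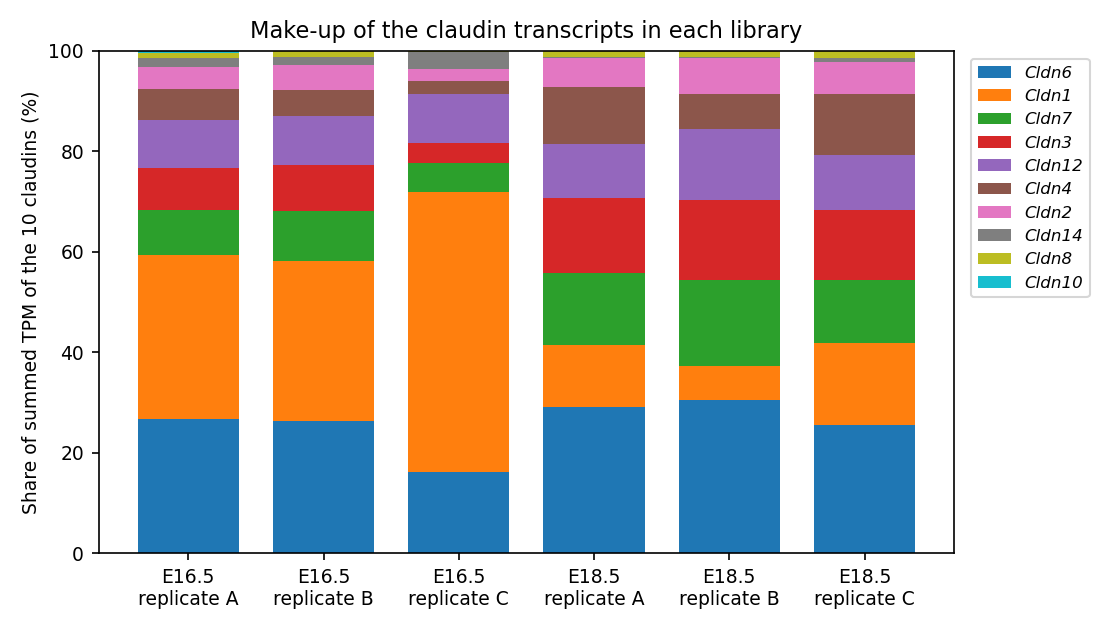
Share of each claudin in the summed TPM of the 10 members, in percent, for each of the 6 libraries. The Cldn1 block takes 31.7% to 55.9% of an E16.5 library and 6.77% to 16.2% of an E18.5 library, while the Cldn3, Cldn4 and Cldn7 blocks are wider in every E18.5 library.

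Cldn10 stood apart from the other members, since its level rested on a single library. It encodes pore-forming claudins, made in forms with different first exons that select for cations or anions. Replicate A of E16.5 had 3.56 TPM (79 reads, 95% exact interval 2.82 to 4.43 TPM). Replicates B and C had 0.198 TPM (4 reads) and 0.0968 TPM (2 reads). At E18.5 the values were 0.169 TPM (3 reads), 0.755 TPM (10 reads) and 0 TPM, the last with a 95% exact interval up to 0.351 TPM. The stages overlapped (exact permutation test on TPM, two-sided, p = 0.6, n = 3 per stage), where the smallest p this design allows is 0.1. The difference in mean log2(TPM + 1), E18.5 minus E16.5, was -0.51 with all libraries and 0.15 without replicate A of E16.5. Cldn10 (ENSMUSG00000022132.15) occupies positions 118787908 to 118875489 of chromosome 14, forward strand.

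Most of the gastric, intestinal and pancreatic acinar list genes were highest in the same library. Cldn18, a claudin of stomach and lung and no member of the 10, reached 5.57 TPM from 213 reads in that library and 0.276 to 0.834 TPM in the 5 other libraries. The 8 pancreatic acinar genes summed to 2469 TPM there, to 230.2 TPM in replicate B and 81.6 TPM in replicate C, while at E18.5 the sum was 15.4 to 54.2 TPM. Of their digestive enzyme genes, Ctrb1 had 1914 TPM and Cpa1 293 TPM in that library. The acinar transcription factor gene Ptf1a was near 0 throughout, with 0.309 TPM there and 0 listed in the others. Tff1 and Pnlip were the only genes of these lists highest elsewhere. Tff1 had 3.66 TPM there and 5.67 TPM in replicate C of E18.5, and Pnlip 0.314 TPM there and 0.432 TPM in replicate B of E16.5. The pancreatic endocrine sum was 40.5 TPM there and highest in replicate B of E18.5, at 53.0 TPM. The part of such transcripts in the Cldn10 level was not tested.

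**Figure D5:**
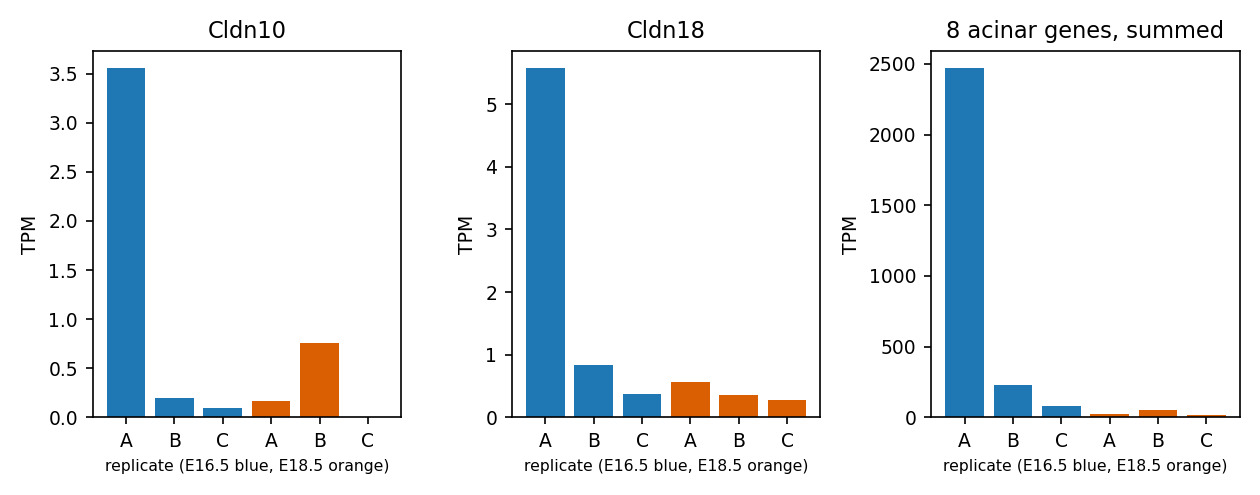
TPM of Cldn10, of Cldn18 and of 8 pancreatic acinar genes summed, each on its own linear axis from 0, in replicates A, B and C of E16.5 (blue) and E18.5 (orange). Replicate A of E16.5 is the highest bar in all 3 panels, with 3.56, 5.57 and 2469 TPM.

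Of the 23 further claudin genes, 7 reached a mean of 1 TPM. Of these, 2 rose and 0 fell, a share of higher calls near the 26.0% of all genes tested, and the median log2 fold change was 1.0. Cldn23, found in intestinal and other surface epithelia, had 5.05, 4.58 and 1.02 TPM at E16.5 and 10.5, 10.3 and 9.99 TPM at E18.5 (a log2 change of 1.46, standard error 0.42, limma adjusted p = 0.0382). Cldn20 rose by 0.75 (limma adjusted p = 0.0411) and had 3.0 to 4.27 TPM at E16.5 and 5.98 to 8.21 TPM at E18.5. Neither was called by limma after median-of-ratios scaling (0 of the 7, of which 1 had an unadjusted p under 0.05), and limma voom called 1. Cldn5, the claudin of endothelium, had 9.32, 4.99 and 5.94 TPM at E16.5 and 8.99, 13.1 and 23.2 TPM at E18.5, with overlapping stages (log2 fold change 1.0, limma adjusted p = 0.0709). Cldn15, a cation pore of the intestine, had 4.72, 1.63 and 0.649 TPM at E16.5 and 4.96, 7.28 and 8.23 TPM at E18.5 (log2 fold change 1.40, limma adjusted p = 0.0561). In all, 2 of the 23 were listed at 0 in every library.

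Genes of proteins that work with claudins at the junction were compared as well. Of 16 such genes, all were tested, 12 rose, 0 fell and 4 (Cgn, Lsr, F11r and Pals1) did not pass the threshold, where 26.0% of all genes tested were called higher. Their median log2 fold change was 0.81, against 0.42 over all genes. Ildr1, a protein of the corners where 3 cells meet, had 5.13, 7.4 and 1.05 TPM at E16.5 and 19.7, 21.1 and 20.7 TPM at E18.5 (a log2 change of 2.18, standard error 0.49, limma adjusted p = 0.0201). The adhesion molecule gene Jam3 rose by 1.77 (from 3.29 to 4.49 TPM to 12 to 17.6 TPM), the tight junction membrane protein gene Marveld3 by 1.74 and the scaffold gene Tjp3 by 1.51. Tjp1, which encodes the scaffold ZO-1 that binds claudin tails, had 67.5 to 103 TPM at E16.5 and 146 to 165 TPM at E18.5 (log2 fold change 0.78, limma adjusted p = 0.0208), and Ocln, which encodes occludin, rose by 0.65 (limma adjusted p = 0.0177). After median-of-ratios scaling 5 of the 16 were called higher, among them Jam3 and Marveld3 (6.81% of all genes were). Ildr1, Tjp3, Tjp1 and Ocln lost their call (limma adjusted p = 0.0502, 0.0706, 0.0947 and 0.265). The median was 0.36, and the log2 change of F11r and Pals1 turned negative. Quantile normalization gave 9 of the 16, where 3796 of all 22452 genes were called in either direction. Limma voom gave 9 of the 13 it tested (5565 of 20430 genes). Without replicate A of E18.5 the count was 1 (1472 of 22410 genes), and without replicate B of E18.5 it was 4 (2917 of 22200 genes).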

How the data were processed

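RNA of GFP-positive cells from SOX9-GFP embryonic livers was sequenced in 6 libraries, 3 per stage, each from 15 pooled livers. The labels name a stranded total RNA kit, and the paper adds a magnetic step against hematopoietic cells. Per the labels and the paper's methods, the authors checked reads with FastQC 0.11.7, trimmed them, aligned them to GRCm38 (HISAT2 2.1.0), obtained gene counts on GENCODE vM15 (HTSeq 0.5.4p3) and deposited TPM; the strand setting is not given in the sources used here. All 6 columns were used. Mitochondrial genes are listed at 0 throughout.

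Symbols, places and exon lengths came from GENCODE vM21, which matched 52403 of 52550 identifiers without their version. Read numbers were worked out by multiplying TPM with exon length and dividing by the value of 1 read, and came out whole within 0.01 for 100% of the values of genes with the same version. For Cldn1, Cldn5, Cldn6, Cldn9 and Cldn14 the exon length had changed and was taken as the length nearest to vM21 that made all 6 values whole. Libraries of a stage differed by a chi-square of 15.1 or more per degree of freedom, so none was a copy. Intervals and the limit of 3 reads cover counting error only. No 50-base word of a member's transcripts occurred in those of another gene.

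The stage comparison used limma 3.58.1 under R 4.3.3 (a linear model with stage as the only term and trended empirical Bayes moderation) on log2(TPM + 1), a scale that understates changes of low genes, and exact permutation tests used Python 3.11.15. The fit was tested on simulated data without a general shift between the stages, so that test does not bear on the scaling of these libraries. The replicates were separate pools, and no batch is named in the labels. Alternatives were a pseudocount of 0.1, no filter, a minimum mean of 5 TPM, quantile normalization, median-of-ratios scaling, limma voom, the replicate letter as a block and each library left out. Named were the members and further claudins with a mean of at least 5 TPM in either stage or next to a member. So were the 4 partner genes with the largest called changes and, for 3 members, Cldn1 and Cldn12, the genes with the most similar profile. Tjp1 and Ocln were added after their values were seen, as were Cldn18, Ctrb1, Cpa1, Ptf1a, Tff1, Pnlip, Spp1 and Alb. The members and lists were chosen with earlier results of these data known.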

Additional observations from a re-analysis of the deposited data

How the results depend on the processing

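All 9 members tested kept their direction under the 13 alternatives. The number of genes called, 7000 in the report, was 4282 with no filter on low values, 3863 with median-of-ratios scaling and 3796 with quantile normalization, and 1472 to 5686 with a library left out. The 5 members called higher became 1 with no filter and 0 with either scaling, and 0 to 5 with a library left out. The 2 called lower became 1 with no filter (Cldn14 lost its call) and 0 to 2 with a library left out. Of the further claudins, 2 in the report, 1 was called with a pseudocount of 0.1, a mean of at least 5 TPM, limma voom or the replicate block, 0 with no filter or either scaling, and 0 to 2 with a library left out. Of the 16 junction partners, 12 in the report, 10 were called with no filter, 5 with median-of-ratios scaling and 9 with quantile normalization. With the replicate block 14 were called, and with a library left out 1 to 11. Limma voom called 9 of the 13 it tested. With no filter 43310 genes entered the adjustment; for the scalings the cause was not tested.

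With the replicate block 7314 genes and 7 members were called, Cldn6 gaining its call (adjusted p = 0.0479) and Cldn4 losing it with an adjusted p just above the threshold. Deviations of same-lettered libraries from their stage means correlated by -0.042, 0.081 and 0.14 for A, B and C, and not every library correlated best with its own letter, so the letters were not taken as pairs. The order of levels at E16.5 was the same with any E16.5 library left out, and at E18.5 1 to 3 member pairs changed places. At E18.5 3 reads of Cldn10 were worth 0.169 to 0.285 TPM, which limits what its lowest values can show.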
